A study of Mus musculus with 69 samples.

Results

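The genes described here are 40 mitosis genes, a fixed list of symbols whose products act between the onset of chromosome condensation and the separation of daughter cells. Members were found on the array through the transcript accession of each probe: 39 of the 40 had at least 1 probe with a RefSeq symbol, by 57 probes in all, among 18656 genes tested. Prc1, which bundles spindle microtubules at the midzone, matched no probe and was not analysed here. The design compares the lung response to nano-TiO2 across material, dose and time after exposure. Female C57BL/6 mice received a single intratracheal instillation of 1 of the 2 nano-TiO2 materials, NRCWE-025 and NRCWE-030 (18, 54 or 162 µg, dispersed in water with 2% serum), or of that vehicle alone, and were 5 to 7 weeks old on arrival, with a further 1 to 3 weeks before exposure. A piece of frozen lung was taken 1 or 28 days later. RNA of each mouse was labelled with Cy5 and hybridised against Universal Mouse Reference RNA, a commercial pool of RNA from mouse cell lines, labelled with Cy3, with no dye swap. There were 69 arrays in 14 groups: 13 groups of 5 mice, and 4 mice in NRCWE-025 162 µg day 28. The 5 vehicle mice of a day served as controls for both materials, so comparisons of a day share those arrays. Each value below is the log2 ratio of lung over reference, and a difference is treated minus vehicle on that scale.

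Mitosis begins when cyclin B and Cdk1 form an active kinase. The condensed chromosomes then attach by their kinetochores to the spindle, the spindle checkpoint holds back the anaphase-promoting complex until all are attached, and the chromosomal passenger complex and the cytokinesis proteins divide the cell. Transcripts of these genes accumulate in late G2 and M phase and are low in resting cells, so in adult lung, where few cells divide, they mark the small dividing fraction. In whole tissue, fewer dividing cells and less RNA per dividing cell cannot be told apart.

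The promoters of this family are known for CCAAT boxes, bound by the factor NF-Y, and for the cell cycle genes homology region with the core TTTGAA or TTTAAA, bound by the MuvB complexes. RefSeq promoter windows of 300 bases (250 before the start and 50 after it, assembly GRCm38.p6) were at hand for 34 of the 40 members and for 27025 genes in all; none was listed for Ccna2, Pbk, Aurkb, Kif20a, Tpx2 and Dlgap5. The letters CCAAT, read on both strands, stood in 25 of the 34 windows (73.5%) against 37.9% of all windows. TTTGAA stood in 24 (70.6%) against 18.1%, and TTTAAA in 9 (26.5%) against 13.2%. A CCAAT together with 1 of the other 2 occurred in 23 windows (67.6%) against 10.9%, and 17 (50%) held 2 or more CCAAT against 12.2%. None of the 3 motifs stood in 5 windows (14.7%), against 45.2% of all. These counts describe letters, with no test, and a match is not shown to be a bound site.

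The stretch from 110 bases before the start to the last base before it is shown for Ccnb1 (cyclin B1), Cdk1 (its kinase), Plk1 (polo-like kinase 1) and Top2a (topoisomerase II alpha), because their levels are described below and because the motifs lie close together there. They were picked after motif positions and values had been seen. Capitals mark the CCAAT box, which reads ATTGG where it lies on the other strand. They also mark the TTTGAA core, which reads TTCAAA where it lies on the other strand. The third motif in capitals is TTTAAA, which reads alike on both strands. The coordinates are those of GRCm38.p6: Ccnb1 chr13:100786487-100786596, minus strand; Cdk1 chr10:69352913-69353022, minus strand; Plk1 chr7:122159325-122159434, plus strand; Top2a chr11:99024190-99024299, minus strand.
Ccnb1: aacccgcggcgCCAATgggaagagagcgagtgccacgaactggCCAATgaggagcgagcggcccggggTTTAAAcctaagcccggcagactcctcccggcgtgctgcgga
Cdk1: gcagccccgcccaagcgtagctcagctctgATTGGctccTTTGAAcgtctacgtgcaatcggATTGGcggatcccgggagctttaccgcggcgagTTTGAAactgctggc
Plk1: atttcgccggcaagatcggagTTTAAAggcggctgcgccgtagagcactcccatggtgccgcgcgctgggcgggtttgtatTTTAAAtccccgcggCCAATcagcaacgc
Top2a: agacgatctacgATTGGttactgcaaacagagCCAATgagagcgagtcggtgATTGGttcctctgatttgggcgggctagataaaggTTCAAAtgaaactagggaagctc

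Most mitosis genes were measurable in these lungs, at levels below the reference. Of the 39 matched members, 32 had a probe that the scanner software called well above background in the lung channel on more than 34.5 of the 69 arrays, and 25 had one on all 69. The 7 others were Ndc80 (29 arrays), Cenpa (12), Hmmr (4), Anln (2), Dlgap5 (2), Ttk (1) and Aurkb (0 arrays). Ndc80 is part of the outer kinetochore complex, Cenpa the histone H3 variant of centromeres, Hmmr and Dlgap5 spindle-associated proteins, Anln a scaffold of the cleavage furrow, Ttk the checkpoint kinase Mps1 and Aurkb the kinase of the chromosomal passenger complex. No fold is given for these 7, since their lung signal lay mostly at background. Every group mean of the 39 was below 0, that is below the reference, with the highest at -0.42 (Dlgap5). Some members were seen by 1 of their probes only: for Cdk1 the 2 probes were well above background on 69 and 0 arrays, for Ect2 on 69 and 6, for Racgap1 on 69 and 5, for Cenpf on 69 and 2, for Ncapg on 69 and 1, for Spag5 on 62 and 0, and for Kif11 on 39 and 2. Of the 3 probes of Cenpe, 1 was seen on all 69 arrays and the others on 1 and 0, so that its median over probes is a value at background. The 3 probes of Ccnb1 were seen on 69, 53 and 21 arrays. Gene values are medians over probes, and where they differ by much, the value of the brightest probe is given beside them.

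The level of the whole group varied between mice of the same treatment by more than most treatments moved it. The median over the 32 detected members had a within-group SD of 0.31, pooled over all groups. Its highest group mean was -2.50 ± 0.21 (SD, n = 5) in NRCWE-025 162 µg day 1 and its lowest -3.09 ± 0.32 (SD, n = 4) in NRCWE-025 162 µg day 28. NRCWE-030 162 µg day 28 lay next to the lowest at -3.06 ± 0.24 (SD, n = 5), and the vehicle groups at -2.81 ± 0.36 on day 1 and -2.99 ± 0.23 on day 28 (SD, n = 5 each). Neighbours in this order differed by less than 1 SD. The widest spread was in NRCWE-030 18 µg day 1, where the 5 arrays read -2.76, -3.57, -1.98, -2.76 and -2.23. In the 5 vehicle arrays of day 1 the values were -2.53, -2.57, -3.20, -3.20 and -2.55, so that 2 of the 5 controls lay well below the other 3.

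**Figure D1:**
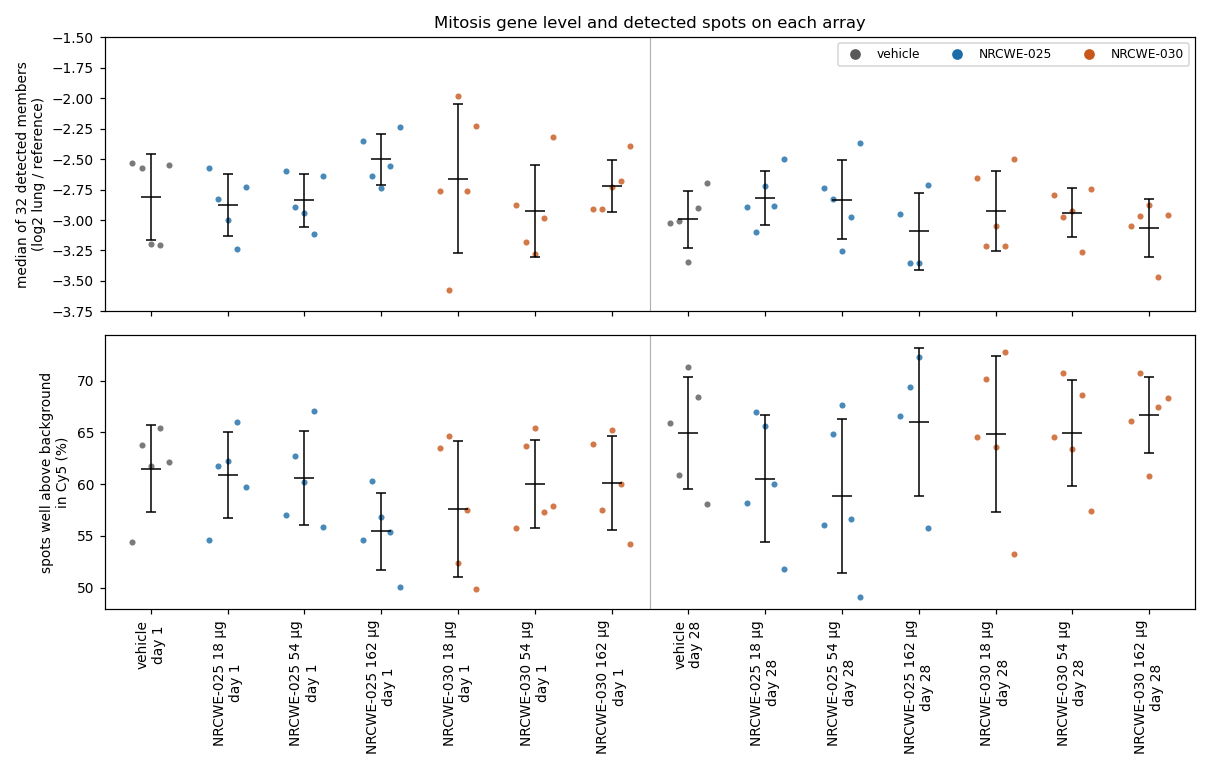
Each point is 1 array: above, the median log2 ratio of lung over reference of the 32 detected members, below, the percent of spots well above background in Cy5, for the 14 groups (bars: mean and SD). The highest group mean above, -2.50 in NRCWE-025 162 µg day 1, stands over the lowest below, 55.4%, and the 5 arrays of NRCWE-030 18 µg day 1 span from -3.57 to -1.98.

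The detected members moved together from array to array. After subtraction of group means, the median Pearson r over the 496 pairs of detected members was 0.68 across the 69 arrays, from 0.03 to 0.95. Tpx2, which activates Aurora A on the spindle, followed the median of the other members most closely (r = 0.95), then Cenpf (0.93), Melk (0.91) and Pbk (0.91). Least alike were Ncaph, a condensin subunit (0.53), and Mki67, which coats mitotic chromosomes and is the usual proliferation marker (0.54). The 5 genes outside the list whose deviations were most like the members' median were Shcbp1 (r = 0.95), Sgo1 (0.94), Depdc1b (0.92), Cenph (0.92) and Cdca5 (0.92), with Sgo1 and Cdca5 the protectors of sister chromatid cohesion and Cenph a kinetochore protein. Among 57 other mitotic genes the median r was 0.78, among 37 DNA replication genes 0.63 and among 8 lung epithelium markers -0.54. These are descriptions over arrays that share slides and the reference.

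The shared movement also followed the share of spots detected in the lung channel of an array. Across the 69 arrays, deviations of the member median from its group mean fell with the percent of spots well above background in Cy5 (Pearson r = -0.65, permutation p = 1e-05, the smallest the permutations can give, adjusted 2e-05; Spearman rho = -0.66, p = 1e-05, adjusted 2e-05; 2 relations computed). Within day 1 r was -0.70, within day 28 it was -0.66, and without the 2 arrays farthest from the median -0.64. For the reference channel r was 0.14 (permutation p = 0.257, rho = 0.08), with 0.35 within day 1 (permutation p = 0.041) and -0.12 within day 28 (permutation p = 0.509). Of the squared deviations of the member median, 61.7% lay between the 19 slides and 51.1% between the 11 scan days, and no slide held enough arrays for a value of its own. Each slide was scanned on a single day, so these shares overlap. Even without a batch effect, so many slides and days would take up part of the squares. With slide means removed as well, r was -0.53 over the 69 arrays. The permutations treat arrays as exchangeable, which arrays of 1 slide are not, so their p may be too small. Genes of similar ratio shared the pattern. These were the 257 other genes whose mean log2 ratio lay between the lower and upper quartile of the detected members, a set added after the data were seen. Their median r with the members' median was 0.69, against 0.02 over the 18617 other genes. The set was picked by the ratio of lung over reference, not by signal strength. Only the members were left out of it, so other mitotic and DNA replication genes could enter. It therefore does not show what genes of like brightness did. The part of this share of detected spots in the differences below was not tested.

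**Figure D2:**
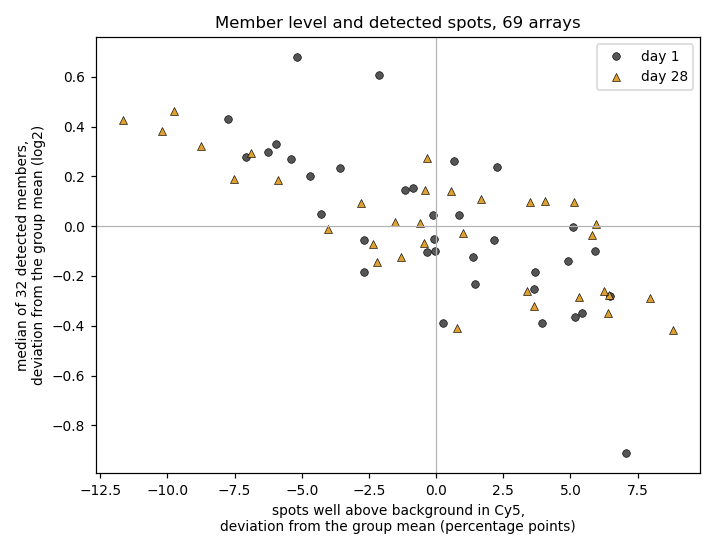
Each point is 1 of the 69 arrays (circles day 1, triangles day 28), with the deviation from the group mean of the percent of spots well above background in Cy5 on the x axis and that of the median log2 ratio of the 32 detected members on the y axis. Arrays with fewer detected spots than their group had higher member medians (r = -0.65).

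NRCWE-025 at 162 µg on day 1 had the highest mitosis gene levels of the series, but no member passed the test. The members' median difference from vehicle was 0.27, against -0.00 over all genes, and 36 of 39 members (92.3%) were above vehicle, against 50% of all genes. Among the 32 detected members the median was 0.24, with 29 above vehicle. By limma with Benjamini-Hochberg adjustment over all genes, 0 of 39 members were called, where 39 of 18656 genes (0.209%) were, and the smallest adjusted p of a member was 0.288. At unadjusted p under 0.05 there were 9 members, each higher, against 12.3% of all genes in either direction and 5.16% higher. The 257 other genes of similar ratio had a median of 0.23, with 217 above vehicle. Other mitotic and DNA replication genes were not taken out of that set, so it is no unrelated control. Nothing here is called particular to the members.

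The cyclins and mitotic kinases were divided at this dose. Their 9 members had a median difference of 0.19, from -0.02 to 0.48. Ccnb1 read -2.66, -3.19, -3.57, -3.56 and -3.26 in the vehicle mice and -2.28, -3.07, -2.81, -3.37 and -2.31 in the treated mice. The groups overlapped, although both highest values were treated, and the difference was 0.48 (95% interval -0.01 to 0.98, adjusted p = 0.421). On the Ccnb1 probe seen on all arrays it was 0.20 (adjusted p = 0.802 in a fit of probes). Cdk1, the partner of cyclin B1, differed by 0.01 (-0.15 to 0.17, adjusted p = 0.979), and by 0.04 on the probe that was well above background on all arrays. Plk1 (-0.02, adjusted p = 0.970) and Ccnb2, cyclin B2 (-0.01, adjusted p = 0.989), were, with Ube2c, the 3 lowest members, while Ccna2, the cyclin of S and G2 phase, was 0.43 above vehicle (0.00 to 0.86, adjusted p = 0.404).

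In the spindle checkpoint group, 6 members had a median of 0.27. Bub1b, the checkpoint protein BubR1, had the largest median over probes of any member, 0.65 above vehicle (95% interval 0.04 to 1.27, adjusted p = 0.371). Its vehicle values were -2.58, -2.76, -3.29, -3.28 and -2.60, and its treated values -0.74, -2.95, -2.74, -2.56 and -2.25. A single treated mouse lay far above all others, the remaining 4 overlapped the controls, and without that mouse the difference was 0.28. Cenpa and Ttk ranked next but were among the members at background. Ccnb1, at 0.48, was the next highest detected member. At the other end, Ube2c, the ubiquitin-conjugating enzyme of the anaphase-promoting complex, was 0.04 below vehicle (-0.49 to 0.42, adjusted p = 0.963). Cenpe, a kinetochore motor, differed by 0.15 on the probe that was seen (adjusted p = 0.884 in the fit of probes).

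Members with the smallest adjusted p stood in the chromosome and spindle groups. Ncapg, a condensin subunit, read -2.78, -2.57, -3.09, -3.64 and -2.68 in vehicle and -2.55, -2.50, -2.73, -2.63 and -2.21 in treated lungs. Most treated values were above most controls, with overlap, and the difference was 0.43 (0.08 to 0.77, adjusted p = 0.288). On the Ncapg probe seen on all arrays it was 0.36 (adjusted p = 0.610 in the fit of probes). Nusap1, a protein that bundles microtubules around chromosomes, differed by 0.45 (0.08 to 0.83, adjusted p = 0.296), with vehicle values of -2.67, -2.86, -3.63, -3.60 and -3.25 and treated values of -2.38, -2.79, -3.14, -2.95 and -2.49. Here too both groups overlapped. Top2a, which untangles sister chromatids, differed by 0.39 (-0.05 to 0.82, adjusted p = 0.474), with controls at -2.43, -1.89, -3.07, -3.15 and -2.38 and treated mice at -2.06, -2.35, -2.39, -2.23 and -1.97, so that the highest value of all belonged to a control. Mki67 differed by 0.12 (-0.31 to 0.55, adjusted p = 0.863): its controls read -3.63, -3.14, -4.26, -4.19 and -3.64 and its treated mice -3.42, -3.33, -4.27, -3.94 and -3.32, which span nearly the same range. The 7 spindle motors and assembly factors were each above vehicle (median 0.27, 0.19 to 0.47), with Spag5 (astrin) the highest, and its brightest probe at 0.72 (adjusted p = 0.399 in the fit of probes). Hmmr and Dlgap5, counted among these 7, were at background on most arrays.

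The 8 chromosomal passenger and cytokinesis members were each above vehicle, by 0.12 to 0.36 (median 0.26). Aurkb and Anln, counted among these 8, were at background on most arrays. Birc5, the passenger protein survivin, differed by 0.26 (-0.28 to 0.80, adjusted p = 0.737). Its controls read -3.41, -2.75, -4.20, -4.28 and -3.45 and its treated mice -3.25, -3.08, -4.14, -3.28 and -3.06. The treated mice fell inside the range of the controls, 1 of them far below the other 4. Racgap1, a subunit of centralspindlin, was highest in this group at 0.36 (-0.00 to 0.73, adjusted p = 0.414).

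How large this median was depended on the scaling of the arrays. It was 0.02 with the arrays scaled to equal spread, 0.11 with median centring, 0.12 with scan day as a block and 0.50 with local backgrounds as deposited. Within the pairs that shared a slide (1 mouse of each group), the detected members' median differed by 0.19 and 0.56, and within a further shared scan day by -0.00. This group also had the lowest percent of spots well above background in Cy5 (55.4 ± 3.73, against 61.5 ± 4.22 in vehicle, SD, n = 5 each).

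**Figure D3:**
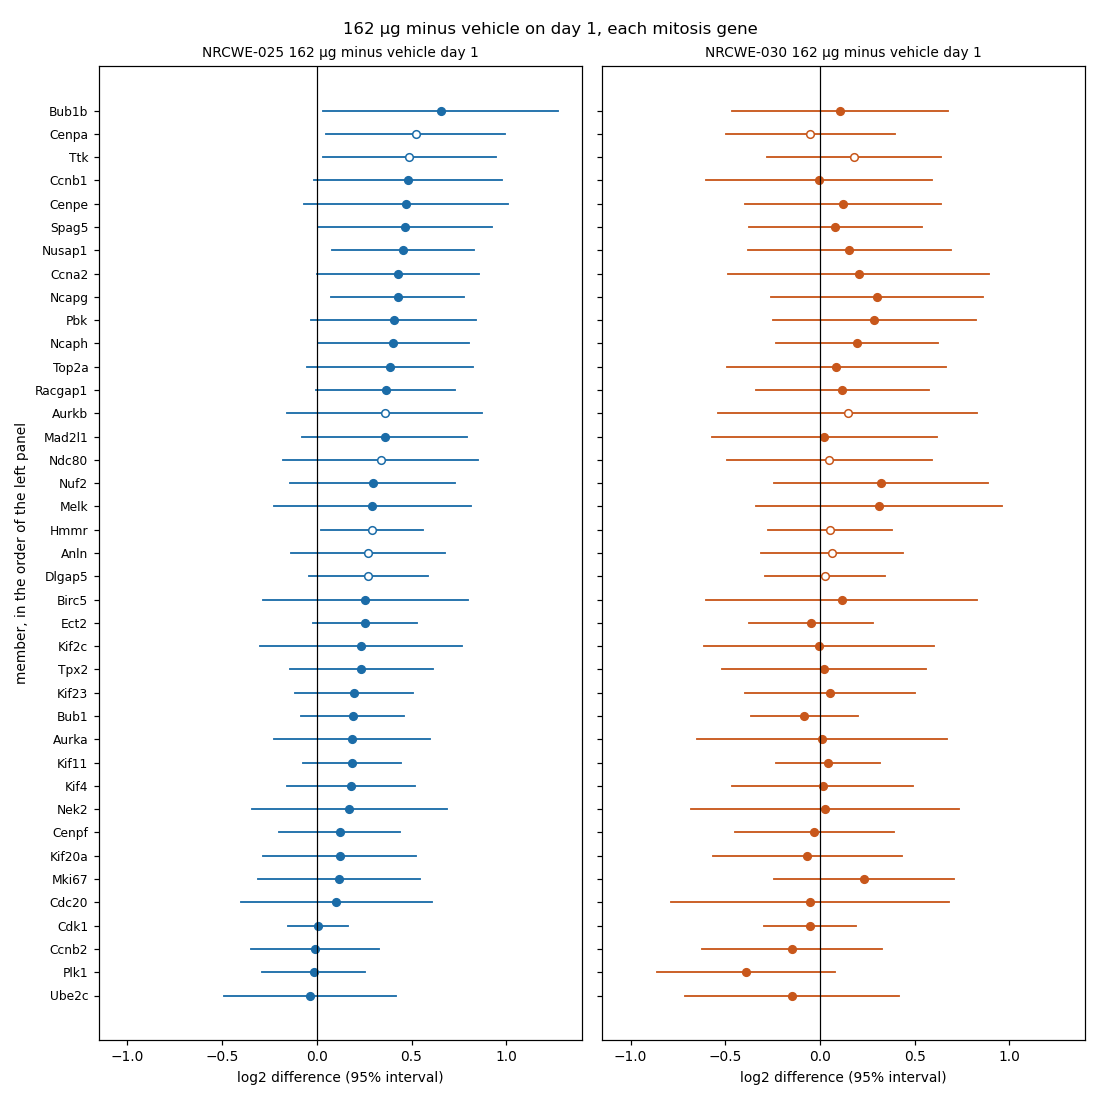
Points give the log2 difference of each matched member at 162 µg minus vehicle on day 1 and lines its 95% interval, for NRCWE-025 (left) and NRCWE-030 (right), in the order of the left panel; open points are members not detected in Cy5. On the left 36 of 39 points lie above 0, from -0.04 to 0.65, and on the right 27 do, from -0.39 to 0.32.

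With NRCWE-030 at 162 µg on day 1 the members lay close to vehicle, in the comparison with the most called genes. The test called 316 of 18656 genes (1.69%) and 0 of 39 members, with a smallest adjusted p of 0.516. The members' median difference was 0.05, with 27 of 39 above vehicle (51.3% of all genes were), and 0 members were at unadjusted p under 0.05, against 12.9% of all genes. Of the 257 other genes of similar ratio, 13 were called, 181 were above vehicle and the median was 0.13. The highest members were Nuf2, a subunit of the Ndc80 complex (0.32, -0.24 to 0.89), Melk, a kinase of dividing cells (0.31, -0.34 to 0.96), and Ncapg (0.30, -0.26 to 0.86). The adjusted p of these was 0.712, 0.784 and 0.740. Mki67 differed by 0.23, Birc5 by 0.11, Top2a by 0.09, Ccnb1 by -0.00 and Cdk1 by -0.05, with adjusted p from 0.774 to 0.998, and the brightest probe of Cdk1 by -0.17.

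Plk1, which drives mitotic entry and spindle assembly, was the lowest member there. Its vehicle values were -1.71, -1.75, -1.99, -1.90 and -1.59, and those of the NRCWE-030 mice -2.13, -2.38, -2.03, -2.10 and -2.26. Every treated mouse lay below every control, which 1.65% of all genes did too, and the difference of -0.39 (-0.86 to 0.08) had an adjusted p of 0.516. With the same dose of NRCWE-025 its values overlapped the controls, at -1.70, -1.55, -2.01, -1.86 and -1.91. Ccnb2 and Ube2c came next, both at -0.15 (adjusted p = 0.887 and 0.910).

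The cell cycle genes called with NRCWE-030 at this dose were mostly DNA replication genes. Of 37 DNA replication genes, 6 were called, each higher, and all 37 were above vehicle (median 0.43). Over all genes 1.69% were called and 51.3% were above vehicle. Of the 257 genes of similar ratio to the members, 13 were called and 181 were above vehicle (median 0.13). Uhrf1, which carries DNA methylation through replication, rose by 1.22 (adjusted p = 0.036), and the helicase subunits Mcm6 and Mcm3 rose by 0.86 (adjusted p = 0.00549) and 0.69 (adjusted p = 0.0118). Pcna, the sliding clamp, rose by 0.60 (adjusted p = 0.0107) and the licensing factor Cdt1 by 0.57 (adjusted p = 0.0241). Of 20 factors that control mitotic and cell cycle transcription, E2f2 fell by 0.59 (adjusted p = 0.00502), and of 13 cell cycle inhibitors, Cdkn1b, which encodes p27, fell by 0.47 (adjusted p = 0.0205). Among 57 other mitotic genes 0 were called, with 4 at unadjusted p under 0.05 and a median of 0.09, and among 7 G1 cyclins and kinases also 0, with 1 at unadjusted p under 0.05.

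With NRCWE-025 at 162 µg on day 1, none of these lists held a called gene by limma. DNA replication genes had a median of 0.36, with 36 of 37 above vehicle and 21 at unadjusted p under 0.05, and the other mitotic genes a median of 0.28, with 51 of 57 above vehicle and 12 at unadjusted p under 0.05. Over all genes these shares were 50% above vehicle and 12.3% at unadjusted p under 0.05. Of the 257 genes of similar ratio to the members, 217 were above vehicle (median 0.23). That the replication genes passed with 1 material and not with the other was not itself tested for the list. A direct comparison of the materials at this dose called 0 of 18656 genes.

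Markers of other cells moved beside these values. Lung epithelium markers, all 8 well above background on the 69 arrays as the labelled tissue should have, had a median difference of -0.26 with NRCWE-025 and -0.46 with NRCWE-030. Heart muscle markers, summarised as a median over 8 genes, ranged from -0.05 to 4.92 over the vehicle mice, from -0.00 to 0.64 with NRCWE-025 and from 0.02 to 3.54 with NRCWE-030. Fat markers (6 genes) ranged from 1.35 to 5.04, 0.00 to 2.73 and 0.18 to 3.16. Macrophage markers (6 genes) had a mean of 2.76 ± 0.37 in vehicle, 2.39 ± 0.40 with NRCWE-025 and 2.53 ± 0.43 with NRCWE-030, and B cell markers (5 genes) of 0.70 ± 0.30, 0.31 ± 0.24 and 0.27 ± 0.20 (SD, n = 5 each). Of 6 thymocyte markers, Dntt and Cd1d1 were well above background on all 69 arrays, and Rag1 (2 arrays), Rag2 (0), Themis (3) and Arpp21 (1) were not. Csf3r, the receptor of neutrophils for G-CSF, rose by 1.25 with NRCWE-030 (adjusted p = 0.00262). The part of these cells in the members' values was not tested.

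At 18 and 54 µg on day 1 the members were close to vehicle with either material. For NRCWE-025 the median differences were -0.07 and 0.05, with 13 and 25 of 39 members above vehicle (45.4% and 47.3% of all genes). At both doses 0 of 39 members and 0 of 18656 genes (0%) were called, and 0 members were at unadjusted p under 0.05 against 5.12% and 6.53% of all genes. For NRCWE-030 the medians were 0.09 and -0.07, with 30 and 9 above vehicle (50% and 47.7% of all genes), 0 members called against 0.00536% and 0.0804% of all genes, and 0 at unadjusted p under 0.05 against 7.3% and 8.76%. Among the 5 genes followed throughout, the largest medians over probes were Birc5 at -0.31 with 54 µg of NRCWE-030 (-1.02 to 0.41, adjusted p = 0.904) and Top2a at -0.17 with 18 µg of NRCWE-025 (-0.61 to 0.27, adjusted p = 0.985). Mki67 was between -0.12 and 0.11, Ccnb1 between -0.04 and 0.15 and Cdk1 between -0.10 and 0.03. On the brightest probes Ccnb1 was between -0.25 and -0.00, thus at or below vehicle, and Cdk1 between -0.18 and 0.00.

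Tested across the 3 doses by the limma F-test, no member passed on day 1. For NRCWE-025, 0 of 39 members were called against 0.0214% of all genes, and 1, Ncapg (adjusted p = 0.456), was at unadjusted p under 0.05 against 9.98%. For NRCWE-030, 0 were called against 0.954%, and 0 were at unadjusted p under 0.05 against 11.2%. At 162 µg the 95% interval of a typical member (the median over members) reached 0.43 to either side with NRCWE-025 and 0.52 with NRCWE-030. With 5 arrays a group, a smaller difference in such a member thus had an interval that included 0. Intervals of single members were narrower or wider than that.

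**Figure D4:**
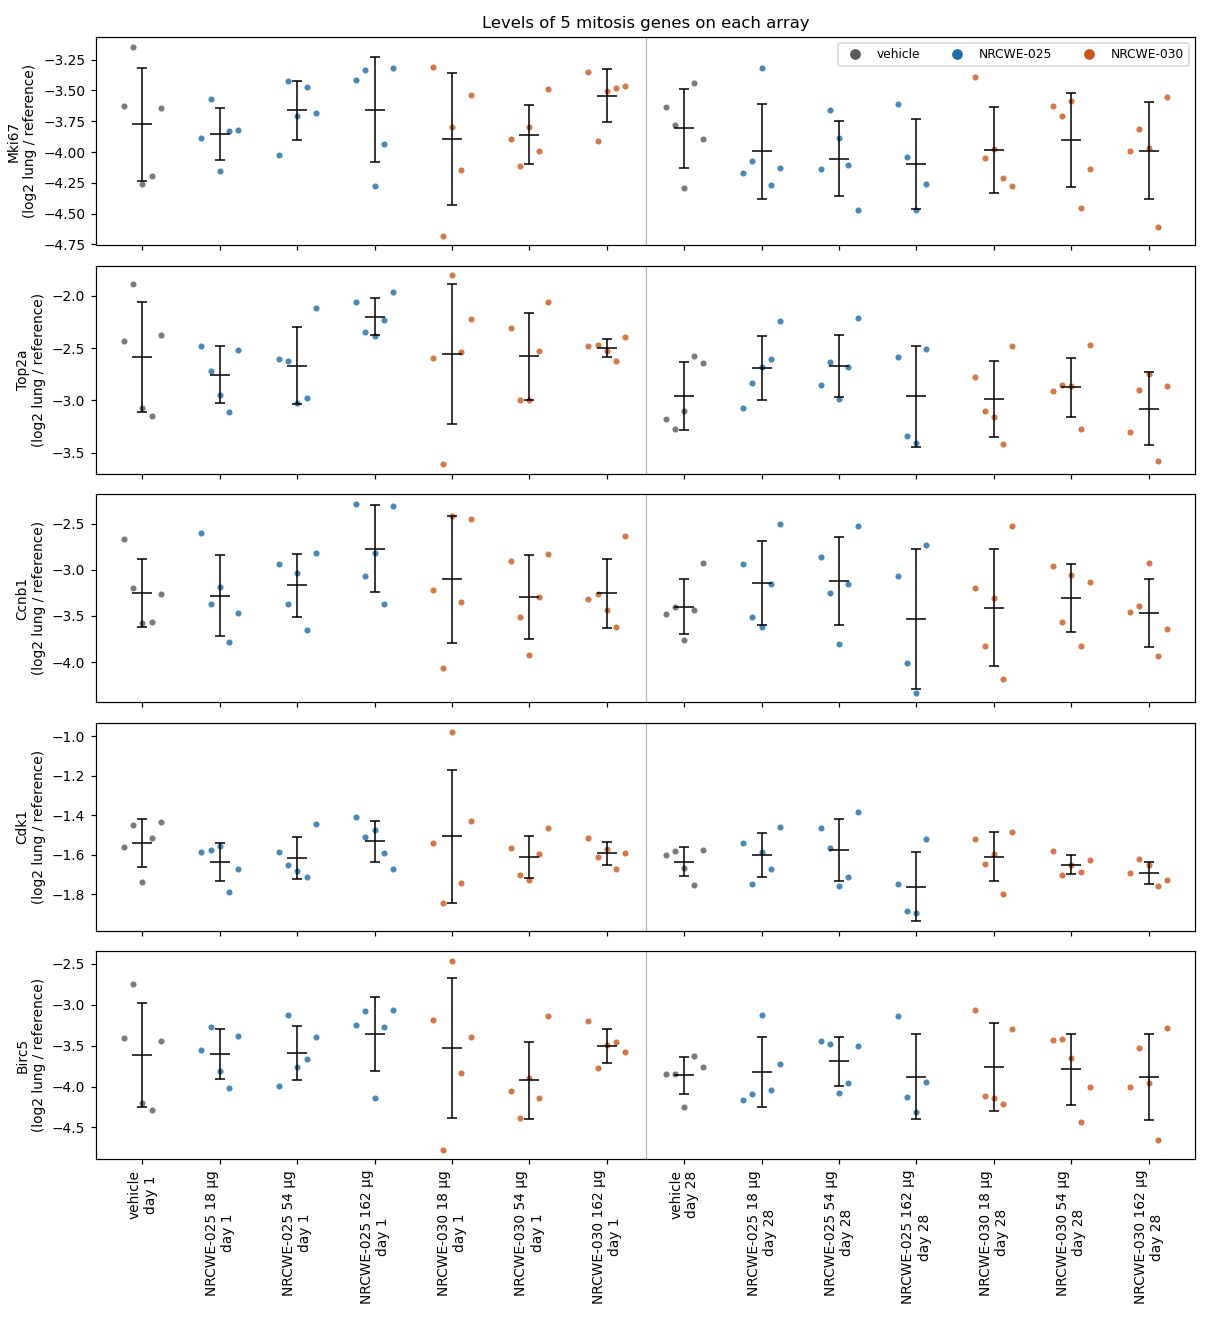
Log2 ratios of lung over reference of Mki67, Top2a, Ccnb1, Cdk1 and Birc5 on each array of the 14 groups, with the mean and SD as bars. In each panel the arrays of treated groups overlap those of the vehicle of the day.

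By day 28 the members of the 162 µg groups lay slightly below vehicle with both materials. The medians were -0.10 for NRCWE-025 and -0.09 for NRCWE-030, with 3 of 39 members above vehicle in each, against 48.7% and 49.3% of all genes. Called members numbered 0 in both, against 0.0161% and 0.0965% of all genes, and 0 were at unadjusted p under 0.05, against 7.24% and 7.51%. The smallest adjusted p was 0.816 and 0.775. The 257 genes of similar ratio behaved alike, with medians of -0.10 and -0.11, and 68 and 64 of them above vehicle. Both medians turned positive with median centring of the arrays (0.12 and 0.13), and that of NRCWE-030 also with arrays scaled to equal spread (0.01), slide as a block (0.01) and scan day as a block (0.02).

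With NRCWE-025 at this dose and day the lowest members were Mki67 (-0.29, -0.73 to 0.16, adjusted p = 0.821), Pbk, a mitotic kinase (-0.26, adjusted p = 0.853), and Tpx2 (-0.23, adjusted p = 0.820). Mki67 read -3.64, -3.78, -4.29, -3.44 and -3.89 in vehicle and -3.61, -4.04, -4.47 and -4.26 in the 4 treated mice, which overlapped. The highest were Nek2, a centrosome kinase (0.05), Nusap1 (0.03) and Ncapg (0.02), with adjusted p of 0.988, 0.987 and 0.993. Top2a differed by -0.00, Birc5 by -0.02, Cdk1 by -0.13 and Ccnb1 by -0.13, with -0.29 and -0.02 on the brightest probes of Cdk1 and Ccnb1. With NRCWE-030 the lowest were Pbk (-0.24, adjusted p = 0.836), Tpx2 (-0.24, adjusted p = 0.790) and Kif2c, a kinesin that depolymerises microtubules (-0.23, adjusted p = 0.818). The highest were Kif20a, a kinesin of cytokinesis (0.10, adjusted p = 0.943), Ncaph (0.06) and Ncapg (0.03). Mki67 differed by -0.18, Top2a by -0.12, Ccnb1 by -0.07, Cdk1 by -0.06 and Birc5 by -0.02.

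At the lower doses of day 28 the medians were at or above 0. With NRCWE-025 the members' medians were 0.12 at 18 µg and 0.17 at 54 µg, with 32 and 36 of 39 above vehicle (51.7% and 49.9% of all genes). The spots well above background in Cy5 were 60.5% ± 6.12 and 58.9% ± 7.43 there, against 64.9% ± 5.42 in vehicle (SD, n = 5 each). With NRCWE-030 the medians were 0.00 at both doses, with 21 and 20 above vehicle (50% and 50.3% of all genes). For NRCWE-025, 0 members were called at either dose (0.059% and 0.0268% of all genes), and 0 and 1 were at unadjusted p under 0.05 (8.89% and 7.07% of all genes). For NRCWE-030, 0 were called (0.118% and 0.0536% of all genes) and 0 were at unadjusted p under 0.05 (9.03% and 6.52%). The 1 member was Kif4, a chromosome-bound kinesin, at 54 µg of NRCWE-025. It read -3.03, -2.85, -3.06, -2.90 and -2.73 in vehicle and -2.48, -2.59, -2.87, -2.71 and -2.28 in treated lungs. Most treated values were above the controls, with overlap, and the difference was 0.33 (0.05 to 0.60, adjusted p = 0.629). Mki67 was below vehicle at these 4 settings, by values between -0.25 and -0.10, while Top2a was between -0.03 and 0.28, Ccnb1 between -0.01 and 0.28, Cdk1 between -0.02 and 0.06 and Birc5 between 0.04 and 0.17. On the brightest probes Mki67 was between -0.31 and -0.02 and Top2a between -0.03 and 0.38. Ccnb1 was between 0.06 and 0.37 there, and Cdk1 between -0.05 and 0.08.

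The F-test over doses on day 28 called 0 of 39 members for NRCWE-025 (0.0268% of all genes) and 0 for NRCWE-030 (0.102%). At unadjusted p under 0.05 there was 1 member, again Kif4 (adjusted p = 0.784), against 5.77% of all genes, and 0 against 7.06%.

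**Figure D5:**
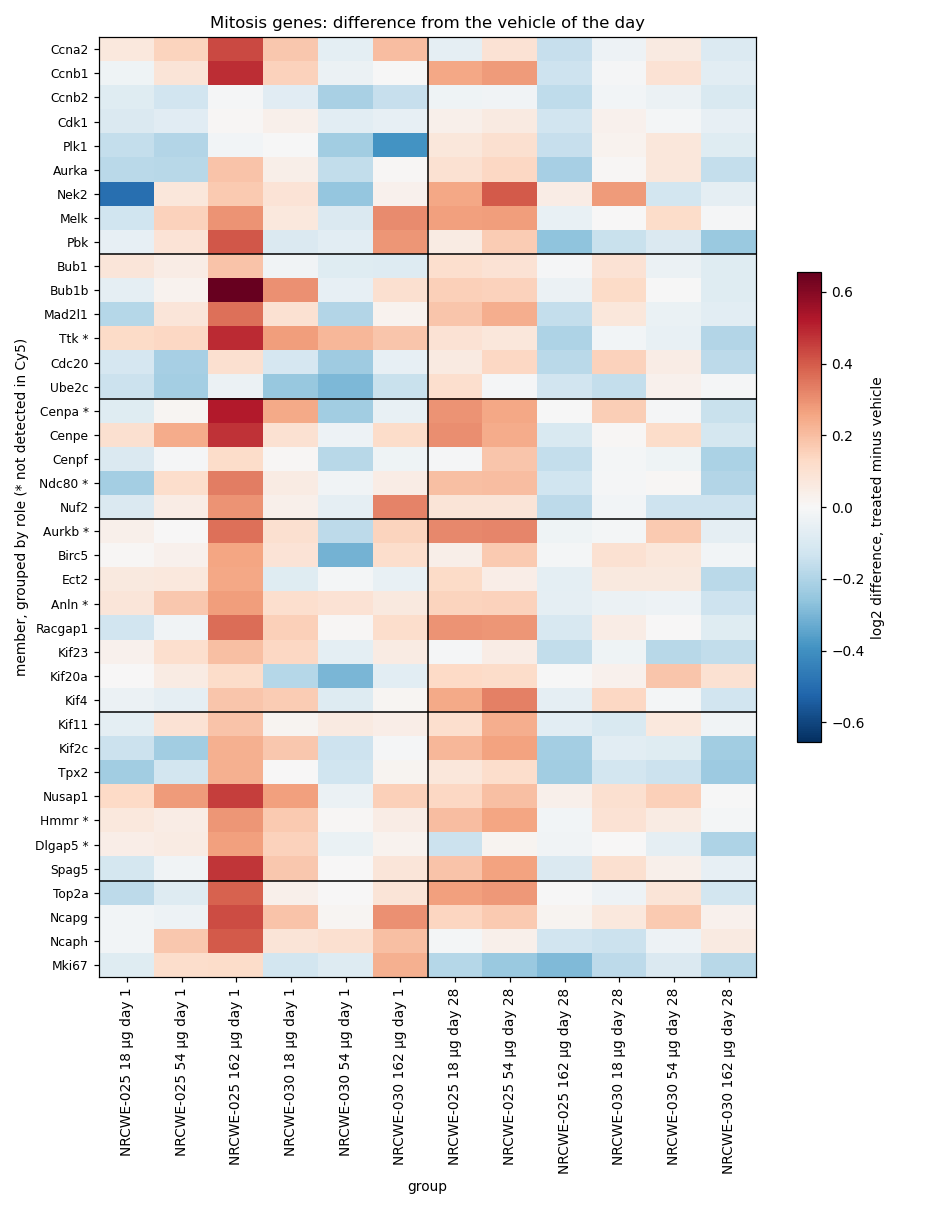
Colour gives the log2 difference of each of the 39 matched members (rows, grouped by role, with an asterisk where not detected in Cy5) from the vehicle of the day, in the 12 treated groups (columns). The column of NRCWE-025 at 162 µg on day 1 is above 0 for 36 members, and the 2 columns of 162 µg on day 28 for 3 each.

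Between the vehicle groups of the 2 days, most members had lower values on day 28. The members' median difference, day 28 minus day 1, was -0.12, with 6 of 39 above 0 (47.5% of all genes), while the 257 genes of similar ratio had a median of -0.21. The direction rested on the scaling: the members' median was 0.14 with median centring and 0.47 with slide as a block, where 2 members at background on most arrays, Hmmr and Ttk, were called. The comparison as fitted called 0 of 39 members (0.0375% of all genes), and 1, Plk1, was at unadjusted p under 0.05 (8.51%). Plk1 read -2.10, -2.14, -2.15, -2.38 and -2.06 on day 28, each below the 5 day 1 values given above, as was so for 0.949% of all genes, and differed by -0.38 (-0.72 to -0.03, adjusted p = 0.526). These are the same day 1 arrays that stood above the NRCWE-030 mice. Next were Top2a (-0.37, -0.83 to 0.09, adjusted p = 0.686) and Ube2c (-0.31, adjusted p = 0.742), and at the other end Ncaph and Kif23, the kinesin of centralspindlin, both at 0.07. Ttk ranked above these 2 but was at background. Birc5 differed by -0.25, Ccnb1 by -0.15, Cdk1 by -0.10 and Mki67 by -0.03. On their brightest probes Top2a differed by -0.24, Ccnb1 by -0.42 and Cdk1 by -0.21.

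The effect of 162 µg was compared between the days in 1 fit of all groups. For NRCWE-025 the effect of day 1 minus that of day 28 had a median of 0.39 over the members, against 0.00 over all genes (50.4% above 0), from 0.09 (Ube2c) to 0.70 (Bub1b). It called 0 of 39 members (0.059% of all genes), and 1, Ttk, at background on most arrays, was at unadjusted p under 0.05 (10.5%). The Bub1b value was 0.32 without the treated mouse at -0.74. Ccnb1 had 0.62 (-0.24 to 1.47), but 0.22 on its brightest probe. Mki67 had 0.41, Top2a 0.39, Birc5 0.27 and Cdk1 0.13, against 0.25, 0.59 and 0.33 on the brightest probes of Mki67, Top2a and Cdk1. The adjusted p of these 5 genes ranged from 0.621 to 0.855. With the same material and dose, the 257 genes of similar ratio differed from vehicle by a median of 0.23 on day 1 and -0.10 on day 28. Spots well above background in Cy5 were 55.4% in the treated mice of day 1 and 66% in those of day 28. The members' medians of both days also depended on the scaling, as given above. The part of detected spots in the difference between days was not tested. For NRCWE-030 the median was 0.17, with 34 of 39 above 0 (51.1% of all genes) and 0 members called (0.198% of all genes), and 0 at unadjusted p under 0.05 (7.67%).

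No member passed a test between the materials. The F-test over the 3 doses called 0 of 39 members on day 1 (0.155% of all genes) and 0 on day 28 (0.241%). At unadjusted p under 0.05 stood 1 member on day 1, Cenpa (adjusted p = 0.620), against 7.78% of all genes, and 0 on day 28 against 6.29%. At 162 µg on day 1, NRCWE-030 minus NRCWE-025 had a median of -0.21 over the members, with 3 of 39 above 0 (51.5% of all genes), and called 0 members (0% of all genes). There, 5 members were at unadjusted p under 0.05, all lower with NRCWE-030, against 6.13% of all genes: Bub1b (-0.55, -1.07 to -0.03), Plk1 (-0.37, -0.72 to -0.03), Ect2, the activator of RhoA in cytokinesis (-0.30, -0.57 to -0.03), Bub1, a checkpoint kinase (-0.27, -0.53 to -0.01), and Cenpa, which was at background on most arrays. Their adjusted p ranged from 0.763 to 0.810, and without the NRCWE-025 mouse at -0.74 the Bub1b difference was -0.17. Spots well above background in Cy5 were 60.1% ± 4.54 in this NRCWE-030 group and 55.4% ± 3.73 in this NRCWE-025 group (SD, n = 5 each). Against vehicle, the 257 genes of similar ratio had medians of 0.13 and 0.23 in these groups. The part of detected spots in the difference between the materials was not tested.

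In 2 of the 39 members, Plk1 and Top2a, every NRCWE-030 mouse lay below every NRCWE-025 mouse at that dose and day, against 0.509% of all genes. The NRCWE-030 mice read -2.48, -2.47, -2.53, -2.62 and -2.40 for Top2a, beneath the NRCWE-025 values given above, a difference of -0.30 (-0.76 to 0.16, adjusted p = 0.880). Ccnb1 differed by -0.49 (-1.07 to 0.10, adjusted p = 0.851), but by -0.23 on its brightest probe. Birc5 differed by -0.14, Cdk1 by -0.06 and Mki67 by 0.11, with -0.21 and 0.28 on the brightest probes of Cdk1 and Mki67. At 162 µg on day 28 the median was 0.01, with 22 of 39 above 0 (50.9% of all genes) and 0 members called (0.0161% of all genes) and 0 at unadjusted p under 0.05 (2.45%).

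The lower doses did not share 1 direction between the materials. At 18 µg on day 1 the median was 0.13 and 31 of 39 members were higher with NRCWE-030 (54.2% of all genes), while at 54 µg it was -0.09 with 8 of 39 above 0 (48.3%). On day 28 the medians were -0.11 at 18 µg and -0.15 at 54 µg, with 7 and 5 of 39 above 0 (48.9% and 49.7% of all genes). In these 4 comparisons 0 members were called, against 0.0482%, 0.059%, 0% and 0.0804% of all genes, and 0 were at unadjusted p under 0.05, against 8.76%, 5.78%, 6.61% and 7.86%. Over all 14 groups, the highest mean of a member fell in NRCWE-025 162 µg day 1 for 31 of the 39, and the lowest in NRCWE-025 162 µg day 28 for 17 and in NRCWE-030 162 µg day 28 for 14.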

How the data were processed

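Lung RNA of 69 mice was measured on 2-colour arrays, and the labels gave the 14 groups. The deposited scanner files hold median spot and local background signals per colour as linear intensity, flags for each spot (read here as other values of 0 or 1), and the scanner software's log10 ratio of Cy5 over Cy3, per the file headers from Agilent Feature Extraction 11.0.1.1. The deposited series matrix holds log2 values that the authors normalised within each array; its columns had medians between -0.0457 and 0.000691 and correlated with a loess without background correction at 0.996 (median over arrays) with a slope of 0.993 on it, so it was read as log2 lung over reference.

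From the intensities, a local background that the software marked as an outlier took the median background of its array, then normexp (offset 50), loess within arrays and medians over spots and over probes of 1 gene followed, in limma 3.58.1 with R 4.3.3. Of 45018 spots, 43379 were not controls. Of 41174 probes, 27479 (66.7%) had a RefSeq symbol (GRCm38.p6), giving 18749 symbols. Saturated spots in Cy5 numbered 0 on each array. Between 49.1% and 72.8% of spots were well above background in Cy5.

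Each material and day was fitted with its vehicle group (F-test over doses and 3 contrasts), and 1 fit of 14 groups gave differences between materials and days. p-values were adjusted by Benjamini-Hochberg over 18656 genes, with a threshold of 0.05. These fits held no slide or scan day term. The p-values thus rest on the spread between arrays of a group, which mixes mice, slides and scan days. Titles gave each mouse its own running number. Members, gene lists and tests were chosen with earlier results of these data known, and no set test was run. Named genes were Mki67, Top2a, Ccnb1, Cdk1 and Birc5, the 3 highest and 3 lowest members at 162 µg and between vehicle groups, members not detected, and called genes of other lists (at most 5 a list). Scripts were tested on simulated data. Alternatives were other background corrections, scalings, probe summaries, filters, blocks, tests and values, and leaving out each mouse. A fit of single probes, values of the brightest probe, the Bub1b value without 1 mouse, the genes of similar ratio and the removal of slide means were chosen after seeing the data. Plots used matplotlib 3.10.9 in Python 3.11.15 with pandas 2.3.3, and files were read with the R package data.table (version 1.17.8).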

Additional observations from a re-analysis of the deposited data

Results flagged for a closer look

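Of 84 sets of arrays examined, each 1 group for 1 of the 5 genes followed throughout or for the members' median, 3 held a mouse that stood apart from the rest of its group by Dixon's criterion at the 95% level. Chance marks about 1 in 20 such sets. Birc5 read -4.14 in replicate 3 of NRCWE-025 162 µg day 1, with the nearest other mouse at -3.28. Mki67 read -3.91 in replicate 2 of NRCWE-030 162 µg day 1, with the nearest at -3.50, and -3.32 in replicate 3 of NRCWE-025 18 µg day 28, above the nearest at -4.08.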

How the results depend on the processing

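No paired analysis was possible because the titles number each mouse once across all groups, and replicate numbers here follow the order of deposit. Over the 21 comparisons, 949 of 950 alternative counts of called members were 0, as reported, leaving out each mouse in turn included. The exception was vehicle day 28 minus day 1 with slide as a fixed block, which called 2 members, Hmmr (adjusted p = 0.0403) and Ttk (adjusted p = 0.0455), neither above background on most arrays, and turned the members' median from -0.12 to 0.47; no slide held vehicle mice of both days, and the cause was not tested. The other 211 of 212 alternative medians moved by less than the spread between arrays of a group. That spread (SD 0.31) was larger than each of the 5 medians, so a median could vanish or change sign within it. The count therefore says little about how firm the medians are. Over the settings with all mice, NRCWE-025 162 µg day 1 ran from 0.02 to 0.50. Leaving out 1 mouse at a time, the median ranged from 0.18 to 0.37 for NRCWE-025 162 µg day 1, -0.05 to 0.15 for NRCWE-030 162 µg day 1, -0.20 to -0.00 and -0.17 to -0.01 for the same groups of day 28, and -0.23 to -0.06 for the vehicle groups. NRCWE-030 162 µg day 1 was -0.16 with arrays scaled to equal spread and -0.00 with scan day as a block, and the vehicle difference 0.14 with median centring. A fit of 40831 probes, chosen after seeing the data, called 0 of the 57 member probes in any comparison. With 5 mice a group, and with 7 matched members mostly at background, changes below about 0.4 to 0.5 in a typical member could not be told from 0. That limit comes from unadjusted intervals at 162 µg on day 1. Larger changes in single members could also stay uncalled after adjustment over all genes.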

Other observations

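Among genes of the other lists, Mmp9, a neutrophil metalloproteinase, was called on day 28 with NRCWE-030: it was 0.96 lower at 54 µg (adjusted p = 0.0168) and 1.11 lower at 162 µg (adjusted p = 0.00289), on the log2 scale. At 162 µg on day 1, the called genes of other lists with NRCWE-030 were also Cidec, a lipid droplet protein of fat (-1.36, adjusted p = 0.0306), Hba-a1, an alpha globin gene with a near-identical copy (-0.65, adjusted p = 0.0207), and Pdgfra, a receptor of mesenchymal cells (-0.55, adjusted p = 0.0463). The effect of 162 µg of NRCWE-030 differed between day 1 and day 28 for Mmp9 (1.46, adjusted p = 0.0126), Csf3r (1.55, adjusted p = 0.0418), Pcna (0.70, adjusted p = 0.0498) and Pttg1, the anaphase inhibitor securin (-0.47, adjusted p = 0.0465). Pttg1 was the single gene of 57 other mitotic genes called in any comparison. Lists of macrophage, T cell, B cell, thymocyte and germinal centre markers held 0 genes called by limma at 162 µg on day 1 with either material, with between 0 and 2 genes of each at unadjusted p under 0.05.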
